A study of Mus musculus with 7 samples.

Results

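The genes described here are 37 genes of mitosis and of the step from G2 into mitosis (G2/M), measured in mouse ovarian granulosa cells, the somatic cells that surround the oocyte. They were taken by symbol from the 50095 genes of the deposited expression table, and all 37 were found in it. The study compared 4 libraries labelled WT, of genotype Ezh2flox/+; Cyp19-Cre, with 3 labelled KO, of genotype Ezh2flox/flox; Cyp19-Cre. Ezh2 encodes the methyltransferase of Polycomb repressive complex 2. Cre was driven by the promoter of aromatase, and since both groups carried it and WT carried 1 floxed allele, no library without Cre and without a floxed allele enters the comparison. All mice were females of 3 weeks, primed with 5 IU of pregnant mare serum gonadotropin to grow follicles and given 5 IU of hCG (human chorionic gonadotropin) after 48 h to trigger ovulation. The labels give neither the time from hCG to collection nor whether each library came from its own animal, so p-values measure the spread between these libraries, which may be technical. WT4 has the treatment label of the KO group but the title and genotype of WT, and was kept in WT.

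Entry into mitosis is driven by Cdk1 bound to cyclin B. The spindle checkpoint then holds back the anaphase-promoting complex (APC/C), a ubiquitin ligase, until every kinetochore is attached, after which the APC/C marks cyclin B for destruction and the cell divides. Many genes of this machinery are transcribed together late in the cell cycle by Mybl2, Foxm1 and the MuvB complex, which act at promoters with a cell cycle genes homology region (CHR) and with CCAAT boxes bound by NF-Y. In the ovary, granulosa cells of growing follicles divide under FSH and estradiol, and they leave the cell cycle after the ovulatory LH surge, which hCG mimics.

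Ezh2 itself did not separate the groups. The 4 WT libraries held 20.5, 23.4, 25.2 and 25.3 FPKM, in the order of their numbers, and those labelled KO1, KO2 and KO3 held 20.03, 17.8 and 26.1 FPKM (log2 difference -0.15, 95% interval -0.46 to 0.16, limma adjusted p = 0.432). Directions below therefore rest on the labels. A value for the whole gene includes exons that Cre does not remove. The table holds no counts, so depth is unknown. Its values were taken as FPKM, fragments scaled to transcript length and to library size, although no header names the unit. They summed to 372085 to 390185 in WT and to 400522 to 450102 in KO-labelled libraries. Differences are KO-labelled minus WT on log2(FPKM + 1), a scale on which their median over the 13850 genes tested was -0.08.

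The promoters are shown because many of the genes changed together. RefSeq (GRCm38.p6) windows from 250 bases before to 50 bases after the start were matched by symbol for 30 of the 37 genes. The CHR was searched as TTTGAA or as one of the variants TTTAAA and, with a CpG, TTCGAA, and the CCAAT box by its letters, on both strands. The opposite-strand forms TTCAAA and ATTGG were therefore counted, while TTTAAA and TTCGAA read the same on both strands, and no form lies within another. Of the 30 genes, 26 (86.7%) held a CHR in a window, against 31.9% of all 27025 genes with one, and 22 (73.3%) held both motifs, against 14% of all. At least 2 CCAAT boxes were found in 15 (50%), against 13.3% of all. The 27025 genes were not limited to those tested for expression, while all 30 were tested. The windows below are examples and do not stand for their groups. The first 4 belong to genes that fell in KO-labelled libraries, and the last 2 to genes that did not pass the test. Capitals mark the 2 motifs, on the strand of the gene, 5′ to 3′.
Mki67, chr7:135716330-135716629, minus strand: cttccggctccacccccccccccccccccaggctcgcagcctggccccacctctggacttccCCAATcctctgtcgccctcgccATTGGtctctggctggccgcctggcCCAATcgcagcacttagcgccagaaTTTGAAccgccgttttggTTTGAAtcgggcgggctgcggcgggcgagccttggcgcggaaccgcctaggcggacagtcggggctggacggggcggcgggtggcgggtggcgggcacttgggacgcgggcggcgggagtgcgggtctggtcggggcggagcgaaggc
Top2a, chr11:99024140-99024439, minus strand: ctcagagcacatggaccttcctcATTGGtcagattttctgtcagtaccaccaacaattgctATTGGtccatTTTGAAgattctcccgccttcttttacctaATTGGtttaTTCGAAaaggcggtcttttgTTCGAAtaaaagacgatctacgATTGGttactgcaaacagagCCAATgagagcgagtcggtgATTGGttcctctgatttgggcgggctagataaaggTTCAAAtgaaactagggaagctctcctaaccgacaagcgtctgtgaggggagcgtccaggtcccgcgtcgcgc
Ccnb2, chr9:70421505-70421804, minus strand: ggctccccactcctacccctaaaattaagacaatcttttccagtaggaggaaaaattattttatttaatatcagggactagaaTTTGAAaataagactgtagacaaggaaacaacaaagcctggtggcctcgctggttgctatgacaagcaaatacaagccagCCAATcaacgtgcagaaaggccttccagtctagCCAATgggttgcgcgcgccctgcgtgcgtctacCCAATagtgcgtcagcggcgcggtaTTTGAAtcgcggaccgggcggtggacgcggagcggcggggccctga
Cdc20, chr4:118437294-118437593, minus strand: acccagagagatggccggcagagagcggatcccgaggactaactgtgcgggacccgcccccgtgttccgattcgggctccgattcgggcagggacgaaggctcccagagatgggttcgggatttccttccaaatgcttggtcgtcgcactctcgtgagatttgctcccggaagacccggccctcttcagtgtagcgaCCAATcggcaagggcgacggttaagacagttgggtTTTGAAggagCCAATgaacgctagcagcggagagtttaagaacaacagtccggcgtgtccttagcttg
Birc5, chr11:117848987-117849286, plus strand: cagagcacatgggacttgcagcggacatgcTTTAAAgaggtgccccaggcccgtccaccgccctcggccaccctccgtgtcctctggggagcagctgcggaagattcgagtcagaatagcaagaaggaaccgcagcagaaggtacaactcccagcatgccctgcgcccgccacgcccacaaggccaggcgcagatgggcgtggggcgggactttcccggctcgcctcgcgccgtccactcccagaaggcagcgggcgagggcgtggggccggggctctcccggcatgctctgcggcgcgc
Bub1b, chr2:118597961-118598260, plus strand: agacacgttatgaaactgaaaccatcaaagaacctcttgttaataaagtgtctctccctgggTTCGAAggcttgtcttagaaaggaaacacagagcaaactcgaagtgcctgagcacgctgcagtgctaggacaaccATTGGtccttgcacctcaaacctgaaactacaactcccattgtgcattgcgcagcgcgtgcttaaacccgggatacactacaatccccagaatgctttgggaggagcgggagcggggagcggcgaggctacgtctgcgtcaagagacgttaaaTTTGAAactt

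In these windows Top2a held 4 CHR and 6 CCAAT matches, Ccnb2 held 2 and 3, and Cdc20 held 1 and 2. Birc5 held 1 CHR match, of the form TTTAAA, and no CCAAT match, and Bub1b held 2 and 1. Windows not printed differed within each group. Aurka and Cenpf, which were not called, held 2 CHR and 2 CCAAT matches each. Anln and Ndc80, which fell, held 2 CHR matches each and no CCAAT match. A CHR match was found in all 18 matched genes that fell and in 8 of the 12 that were not called, and both motifs were found in 15 and in 7 of them. The genes without a window, Aurkb, Ccna2, Cdc25c, Foxm1, Incenp, Kif20a and Tpx2, all fell. These counts thus cover 18 of the 25 genes that fell but all 12 that were not called. The difference between these groups was not tested, and a match is a description of letters, not of binding.

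Most mitosis genes were lower in KO-labelled libraries and none was higher. Of the 37 genes, all expressed above the minimum mean of 1 FPKM used for testing, 25 (67.6%) fell at a limma adjusted p under 0.05, against 16.7% of all genes tested, and 0 rose, against 7.91% of all. At an unadjusted p under 0.05 the counts were 29 lower and 0 higher, but the share of all genes at that threshold was not counted. For 27 genes every KO-labelled library lay below every WT library, against 24.8% of all genes, and for 0 every one lay above, against 11.5%. The difference was below 0 for 34 genes, against 59.3% of all, and its median was -0.45. Mean WT levels ranged from 5.40 FPKM for Cdc25c to 61.0 FPKM for Ube2c, with a median of 21.8 FPKM, against a median of 7.64 FPKM over all genes tested. The corresponding KO-labelled means ranged from 2.91 to 46.8 FPKM. Reads of bulk cells do not tell fewer dividing cells from less of these RNAs per cell.

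The number that fell depended on single libraries. It was 12 without KO1, 14 without WT3, 17 without WT2, 22 without WT4, and 15 with no filter on low values. Fewer of all genes were called lower in each of these settings as well, with counts given in the last section. The drops were not compared. No setting gave a rise. Equal sums of FPKM moved the median difference of all genes from -0.08 to -0.21. Relative to the median of all genes, the median of the 37 genes was -0.37, and it lay between -0.44 and -0.31 in every setting tried. Of the 25 calls, 11 held whichever single library was left out: Mki67, Top2a, Ccna2, Cdc25c, Bub1, Cdc20, Cenpa, Kif11, Tpx2, Anln and Foxm1.

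**Figure D1:**
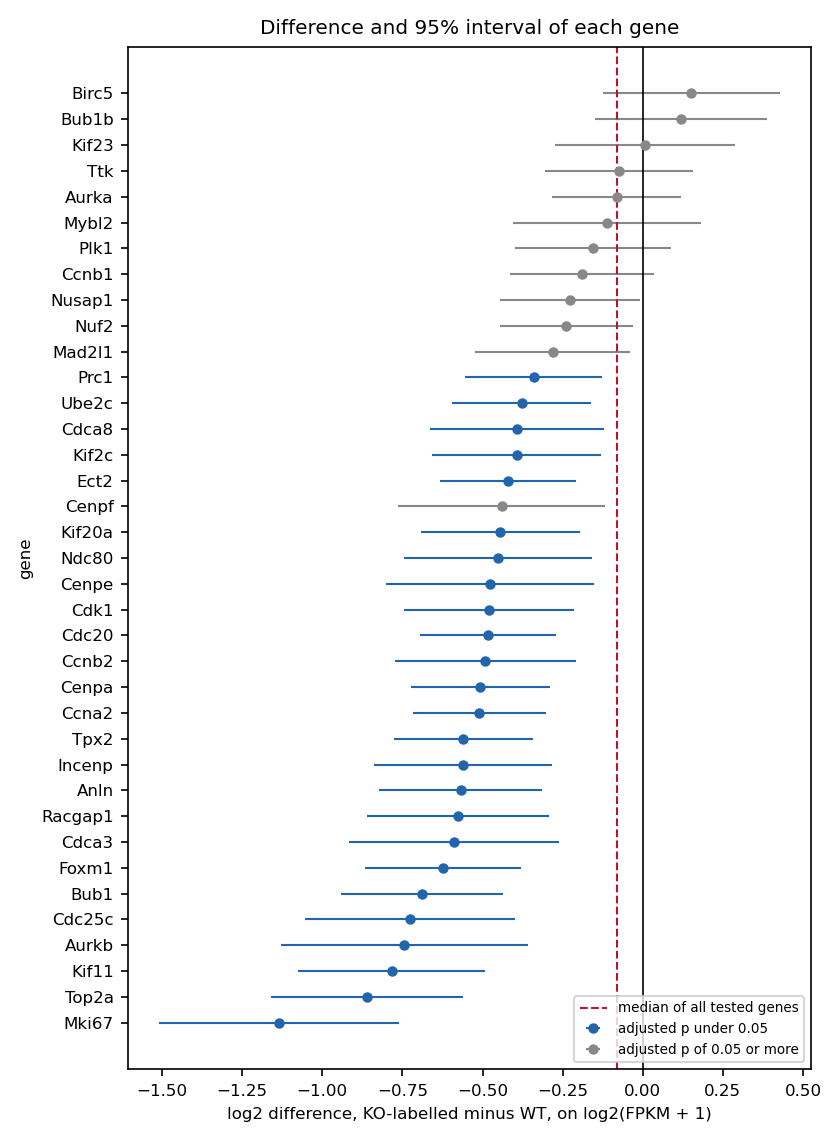
Log2 difference of each of the 37 genes (rows), KO-labelled minus WT on log2(FPKM + 1), with its 95% interval from limma (x axis), over 4 WT and 3 KO-labelled libraries. The 25 genes in blue fell at an adjusted p under 0.05, the 12 in grey were not called, and the dashed line marks the median of all tested genes at -0.08.

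The 2 proliferation markers had the largest differences of the 37. Mki67 (ENSMUSG00000031004, in the GENCODE annotation of GRCm38 on chromosome 7, 135689784 to 135716361, minus strand), which coats mitotic chromosomes, stood at 21.1, 33.9, 27.7 and 24.5 FPKM in WT and at 9.46, 12.2 and 13.0 FPKM in KO-labelled libraries, values being listed here and below in the order of library numbers. Every KO-labelled value was thus well under the lowest WT value, and the mean fell by 56.8% (log2 difference -1.14, SE 0.17, 95% interval -1.51 to -0.76, adjusted p = 0.00498). Top2a (ENSMUSG00000020914, chromosome 11, 98992943 to 99024189, minus strand), the topoisomerase that untangles sister DNA, stood at 50.4, 65.0, 57.6 and 56.6 FPKM in WT and at 25.3, 34.9 and 33.8 FPKM in KO-labelled libraries. Its groups were likewise apart, with WT2 the highest and KO1 the lowest for both genes (log2 difference -0.86, SE 0.13, 95% interval -1.16 to -0.56, adjusted p = 0.00572).

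Among the genes of mitotic entry, 5 of 6 fell, and the exception was cyclin B1. Ccna2, a cyclin of S phase and G2, stood at 28.1, 32.1, 27.9 and 28.4 FPKM in WT and at 20.1, 18.9 and 21.4 FPKM in KO-labelled libraries. Its groups did not overlap (log2 difference -0.51, SE 0.092, 95% interval -0.72 to -0.30, adjusted p = 0.00827). Ccnb1, the main cyclin B partner of Cdk1, stood at 41.4, 41.8, 45.8 and 41.6 FPKM in WT and at 32.9, 38.0 and 41.2 FPKM in KO-labelled libraries. KO3 came just under the lowest WT library, so the groups met without overlapping, and the gene was not called (log2 difference -0.19, SE 0.0995, 95% interval -0.42 to 0.03, adjusted p = 0.182). The second B cyclin, Ccnb2, fell from 27.0 ± 3.21 FPKM to 18.9 ± 2.35 FPKM (limma adjusted p = 0.0235), where ± gives the SD, with n = 4 in WT and n = 3 in KO-labelled libraries, as in all means below. Cdk1 fell from 29.2 ± 2.82 to 20.7 ± 2.72 FPKM (adjusted p = 0.0206). Cdc25c, a phosphatase that activates Cdk1, fell from 5.40 ± 0.515 to 2.91 ± 0.804 FPKM (adjusted p = 0.0109), and was the least expressed of the 37. Cdca3, which promotes mitotic entry, fell from 17.3 ± 3.25 to 11.1 ± 1.40 FPKM (adjusted p = 0.0210). The Ccnb2 call was lost without WT2, WT3 or KO2, that of Cdk1 without WT2, KO1 or KO3 and with upper-quartile scaling or the length correction, and that of Cdca3 without WT3 or KO1. Without a filter on low values, which raises the number of genes tested to 32922, none of these 3 was called (adjusted p = 0.0638, 0.0551 and 0.0649).

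The 2 genes grouped here as mitotic kinases, Plk1 and Aurka, were not called. Other kinases among the 37 are described with other roles: Cdk1, Aurkb and Bub1 fell, and Ttk was not called. Plk1, which acts from mitotic entry to cytokinesis, stood at 22.5, 23.4, 22.8 and 21.5 FPKM in WT and at 18.1, 18.9 and 23.8 FPKM in KO-labelled libraries. KO3 held the highest value of all 7 libraries and KO1 the lowest, so the groups overlapped (log2 difference -0.16, SE 0.11, 95% interval -0.40 to 0.09, adjusted p = 0.304). Aurka, the centrosomal Aurora kinase, was at 19.5 ± 0.664 and 18.4 ± 1.55 FPKM (log2 difference -0.08, adjusted p = 0.521), and the sign of this difference turned with median-of-ratios and upper-quartile scaling. Differences above 0.09 are outside the 95% interval of Plk1, and those below -0.28 are outside that of Aurka (-0.28 to 0.12).

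The chromosomal passenger complex corrects faulty kinetochore attachments and guides cytokinesis, and 3 of its 4 subunits fell. Incenp, its scaffold, stood at 25.7, 31.4, 28.5 and 23.8 FPKM in WT and at 16.0, 18.05 and 20.6 FPKM in KO-labelled libraries. All KO-labelled values were below all WT values (log2 difference -0.56, SE 0.12, 95% interval -0.84 to -0.28, adjusted p = 0.0149). The kinase Aurkb fell from 21.8 ± 3.67 to 12.7 ± 2.81 FPKM (adjusted p = 0.0170), and Cdca8, the subunit called borealin, from 28.5 ± 1.26 to 21.7 ± 4.08 FPKM (adjusted p = 0.0433). Birc5, or survivin, which brings the complex to centromeres, did not share this. It stood at 44.7, 34.1, 37.7 and 35.6 FPKM in WT and at 45.2, 36.5 and 45.2 FPKM in KO-labelled libraries. WT1 was nearly as high as KO1 and KO3, and the groups overlapped (log2 difference 0.15, SE 0.12, 95% interval -0.13 to 0.43, adjusted p = 0.379). Incenp was not called without KO1, nor Aurkb without WT3 or KO1 or with no filter (adjusted p = 0.0604). Cdca8 was not called when any library other than KO3 was left out, nor with the replicate block, the length correction, no filter, or upper-quartile or median-of-ratios scaling (adjusted p from 0.0619 to 0.0983).

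Of 4 spindle checkpoint genes, only Bub1 was called. This kinase, which recruits the checkpoint to kinetochores, stood at 14.1, 18.6, 17.6 and 16.0 FPKM in WT and at 9.14, 9.93 and 10.6 FPKM in KO-labelled libraries. The 3 KO-labelled values lay close together and below WT (log2 difference -0.69, SE 0.11, 95% interval -0.94 to -0.44, adjusted p = 0.00659). Bub1b encodes BubR1, a subunit of the mitotic checkpoint complex that inhibits the APC/C. It stood at 31.6, 31.2, 34.2 and 35.2 FPKM in WT and at 34.3, 31.2 and 43.2 FPKM in KO-labelled libraries, with KO3 above all others and KO2 just under the lowest WT library (log2 difference 0.12, SE 0.12, 95% interval -0.15 to 0.39, adjusted p = 0.478). With equal sums of FPKM or without KO3 the Bub1b difference turned to -0.028 and -0.012. The checkpoint protein Mad2l1 was at 33.1 ± 1.31 and 27.2 ± 3.99 FPKM (adjusted p = 0.0826) and passed the test without KO3 or with equal sums of FPKM. Ttk, the kinase Mps1 that starts the checkpoint, was at 11.5 ± 0.722 and 10.9 ± 1.21 FPKM (adjusted p = 0.611).

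Both genes of the APC/C pathway among the 37 fell. Cdc20, the APC/C activator that the checkpoint restrains, stood at 33.0, 32.3, 30.6 and 30.4 FPKM in WT and at 23.0, 19.9 and 24.2 FPKM in KO-labelled libraries. The WT values were tightly grouped and all above the KO-labelled ones (log2 difference -0.48, SE 0.094, 95% interval -0.70 to -0.27, adjusted p = 0.0104). Ube2c, the ubiquitin-conjugating enzyme of the APC/C, stood at 64.5, 58.1, 60.9 and 60.3 FPKM in WT and at 46.1, 42.4 and 52.1 FPKM in KO-labelled libraries. It was the most expressed of the 37 and its groups did not overlap (log2 difference -0.38, SE 0.096, 95% interval -0.59 to -0.16, adjusted p = 0.0237), but the call was lost without WT3, KO1 or KO2. Of its exon bases 22.8% overlap those of Tnnc2 on the opposite strand, and since no strand setting is given, reads of the 2 genes cannot be told apart there. Overlaps on the opposite strand also cover 12.5% of the exon bases of Ccna2, 12.7% of those of Cdc25c and 11.1% of those of Prc1.

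Kinetochore genes fell in 3 of 5. Cenpa, the histone H3 variant that marks centromeres, stood at 31.4, 34.6, 33.0 and 32.4 FPKM in WT and at 24.9, 20.2 and 23.6 FPKM in KO-labelled libraries. The gap between the groups was wider than the range of either (log2 difference -0.51, SE 0.096, 95% interval -0.72 to -0.29, adjusted p = 0.00952). Ndc80, a core of the microtubule attachment, fell from 8.34 ± 1.13 to 5.83 ± 0.874 FPKM (adjusted p = 0.0343), and its partner Nuf2 was at 14.4 ± 0.337 and 12.1 ± 1.18 FPKM without a call (adjusted p = 0.0875), although every KO-labelled value was below WT. The kinesin Cenpe fell from 9.91 ± 1.64 to 6.80 ± 0.870 FPKM (adjusted p = 0.0406) while WT1, at 7.47 FPKM, lay under KO3, at 7.74 FPKM. It was the single called gene with overlapping groups. Cenpf, a large protein of the outer kinetochore, was at 7.53 ± 0.843 and 5.34 ± 1.23 FPKM (adjusted p = 0.0520) and passed the test without WT1, without KO3 or with equal sums of FPKM. The call of Ndc80 was lost without WT2, WT3, KO1 or KO2, that of Cenpe when any library other than WT1 was left out, and both with no filter or the length correction (adjusted p from 0.0555 to 0.143). Cenpe was also lost with median-of-ratios scaling, upper-quartile scaling and the replicate block.

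Spindle genes fell in 3 of 4. Kif11, the kinesin that pushes spindle poles apart, stood at 11.9, 16.3, 14.1 and 13.5 FPKM in WT and at 6.86, 7.24 and 8.98 FPKM in KO-labelled libraries. KO3 was the highest of its group but still below WT1, the lowest of the other (log2 difference -0.78, SE 0.13, 95% interval -1.07 to -0.49, adjusted p = 0.00679). Tpx2, which activates Aurka on spindle microtubules, stood at 20.1, 22.0, 21.6 and 20.8 FPKM in WT and at 12.5, 14.2 and 15.5 FPKM in KO-labelled libraries. Its groups lay further apart than either group's range (log2 difference -0.56, SE 0.096, 95% interval -0.78 to -0.34, adjusted p = 0.00725). The microtubule depolymerase Kif2c fell from 14.6 ± 1.67 to 10.9 ± 1.15 FPKM (adjusted p = 0.0387), and the microtubule bundler Nusap1 was at 13.3 ± 0.719 and 11.3 ± 1.08 FPKM (adjusted p = 0.112). Kif2c was not called without WT1, WT2, WT3, KO1 or KO3, and Nusap1 was called with equal sums of FPKM. Kif2c was also lost with the length correction, no filter, and upper-quartile or median-of-ratios scaling (adjusted p from 0.0709 to 0.0858).

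Cytokinesis genes fell in 5 of 6. Anln, or anillin, which organises the contractile ring, stood at 9.88, 12.0, 11.8 and 11.5 FPKM in WT and at 6.37, 7.23 and 8.28 FPKM in KO-labelled libraries. No KO-labelled value reached the WT range (log2 difference -0.57, SE 0.11, 95% interval -0.82 to -0.31, adjusted p = 0.0107). Prc1, which bundles the microtubules of the central spindle, stood at 34.8, 38.0, 38.1 and 37.6 FPKM in WT and at 27.2, 27.7 and 32.6 FPKM in KO-labelled libraries. KO3 lay nearest to WT1, without overlap (log2 difference -0.34, SE 0.094, 95% interval -0.55 to -0.13, adjusted p = 0.0312). Racgap1, a GTPase-activating subunit of centralspindlin, fell from 28.1 ± 2.35 to 18.7 ± 3.40 FPKM (adjusted p = 0.0145), and Ect2, the RhoA exchange factor it recruits, from 11.9 ± 0.717 to 8.64 ± 0.632 FPKM (adjusted p = 0.0156). Kif20a, a kinesin of the central spindle, fell from 12.3 ± 0.390 to 8.82 ± 1.36 FPKM (adjusted p = 0.0214), although 29.3% of its exon bases overlap Cdc23 on the opposite strand, which fell as well. Kif23, the kinesin subunit of centralspindlin, was at 22.2 ± 1.88 and 22.5 ± 3.93 FPKM (log2 difference 0.0074, 95% interval -0.27 to 0.29, adjusted p = 0.971). The Prc1 call was lost without WT2, WT3, WT4, KO1 or KO2, with no filter, with the replicate block, with median-of-ratios or upper-quartile scaling and with the length correction (adjusted p from 0.0531 to 0.0659). Racgap1 was lost without KO1, Ect2 without WT3 or KO1, and Kif20a without WT2, WT3 or KO1 and with no filter (adjusted p = 0.0510).

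Of the 2 transcription factors, Foxm1 fell and Mybl2 was not called. Foxm1 stood at 13.2, 16.0, 13.9 and 13.2 FPKM in WT and at 9.40, 7.74 and 9.17 FPKM in KO-labelled libraries. Its groups did not overlap (log2 difference -0.62, SE 0.11, 95% interval -0.87 to -0.38, adjusted p = 0.00739). Mybl2 was at 11.4 ± 1.40 and 10.5 ± 1.71 FPKM, with KO3 above WT2, WT3 and WT4 (log2 difference -0.11, 95% interval -0.41 to 0.18, adjusted p = 0.546).

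**Figure D2:**
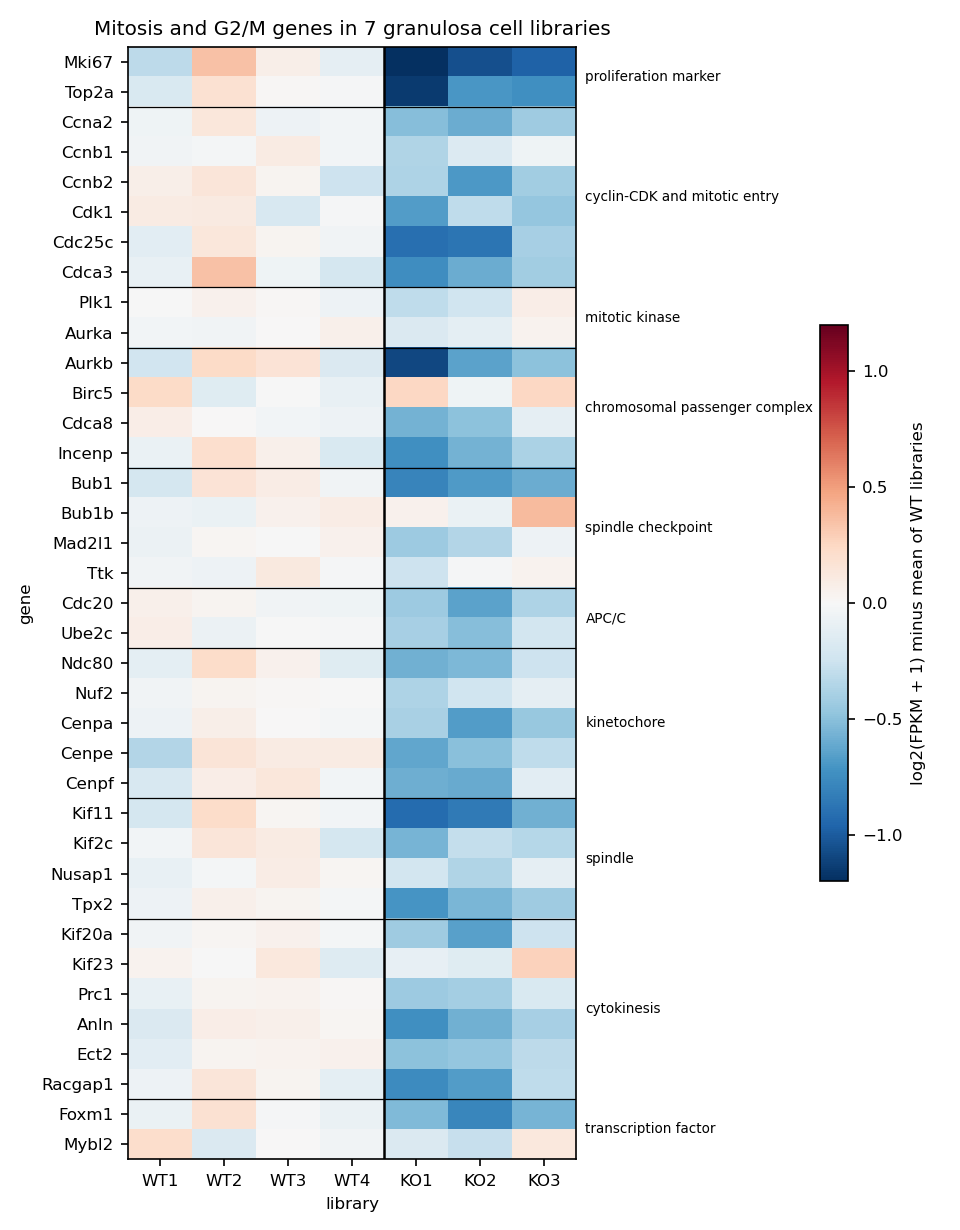
Level of each of the 37 genes (rows, grouped by role) in each library (columns), as log2(FPKM + 1) minus the mean of the 4 WT libraries, with blue for lower and red for higher. Most rows are blue in KO1 and KO2 and paler in KO3, while Birc5, Bub1b and Kif23 are among those not lower in KO3.

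The ratio of 2 genes within a library is free of the scaling between libraries, and it is given here as a description. All 18 pairs within 4 sets of genes that work together were taken, sets drawn up after the values were seen. Birc5 to Cdca8 stood at 1.48, 1.19, 1.35 and 1.30 in WT1 to WT4 and at 2.40, 1.83 and 1.72 in KO1 to KO3, so that every KO-labelled ratio was above every WT ratio. Bub1b to Bub1 was 2.01 ± 0.259 (SD, n = 4) and 3.66 ± 0.478 (SD, n = 3), also without overlap. Kif23 to Racgap1, the 2 subunits of centralspindlin, was 0.793 ± 0.0672 and 1.21 ± 0.0589, without overlap. Bub1b to Ttk, at 2.87 ± 0.160 and 3.33 ± 0.506, and Ccna2 to Ccnb2, at 1.09 ± 0.125 and 1.07 ± 0.0938, had overlapping groups. Of the 18 ratios 9 did not overlap between the groups, near the 43.8% of all 666 pairs among the 37 genes that did not. With two-sided exact permutation of so few libraries, the smallest p that a ratio could reach was 0.0286. The 7 ratios at an unadjusted exact permutation p under 0.05 all stood at this floor. After Benjamini-Hochberg adjustment 0 of the 18 passed (smallest adjusted exact permutation p = 0.0735). A pass needed more than these 7 ratios at the floor, so the test could not decide whether single ratios differed.

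**Figure D3:**
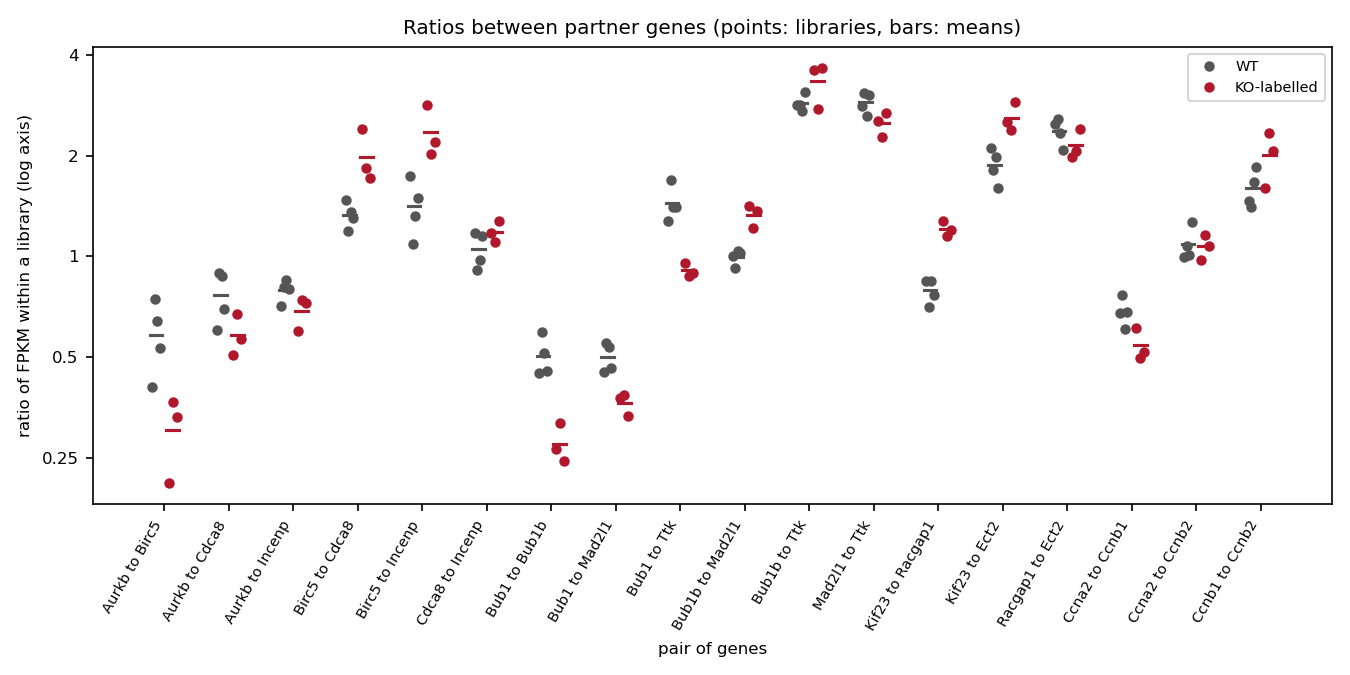
Ratio of FPKM between 2 genes within each library (y axis, log scale) for the 18 pairs (x axis), with points for the 4 WT (grey) and 3 KO-labelled (red) libraries and bars for group means. The groups do not overlap in 9 pairs, such as Birc5 to Cdca8 and Kif23 to Racgap1, and overlap in the others, such as Bub1b to Ttk and Ccna2 to Ccnb2.

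The 3 KO-labelled libraries were not equally low. The median over the 37 genes of log2(FPKM + 1) minus the WT mean was -0.51 in KO1, -0.54 in KO2 and -0.31 in KO3, against -0.062, 0.072, 0.035 and -0.034 in WT1 to WT4. KO3 was the highest of the KO-labelled libraries for 30 of the 37 genes and the lowest for 0, and KO1 was the lowest for 24. Over all tested genes the same median was -0.093 in KO1, -0.14 in KO2 and -0.024 in KO3, so KO3 was the highest there too. The share of all genes that were highest in KO3 was not counted. KO3 was also the KO-labelled library with the highest Ezh2, at 26.1 FPKM, which lay above every WT library (20.5 to 25.3 FPKM). A link between Ezh2 and the level of the 37 genes was not tested. Among WT libraries WT2 was the highest for 21 genes and WT1 the lowest for 18. The spread within a group, as SD over mean, had a median of 8.42% in WT and 12.7% in KO-labelled libraries, and reached 20.3% for Mki67 in WT and 27.6% for Cdc25c in KO-labelled libraries.

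Other genes of the cell cycle were listed by function, and their counts stand against 16.7% lower and 7.91% higher among all genes tested, whose median difference was -0.08. Of 92 other mitosis genes 44 fell (47.8%) and 0 rose, with a median difference of -0.36. They included Hmmr, a spindle protein, at 6.28 ± 0.602 and 2.71 ± 0.0968 FPKM (limma adjusted p = 0.00292), and Ncapd2, a condensin subunit, at 34.2 ± 3.71 and 15.8 ± 2.16 FPKM (adjusted p = 0.00302). Of 51 S-phase genes 26 fell (51.0%) and 0 rose, with a median of -0.35, among them the DNA polymerase subunit Pole, at 7.23 ± 0.986 and 3.26 ± 0.492 FPKM (adjusted p = 0.00424), and Rrm1, a subunit of ribonucleotide reductase, at 26.5 ± 1.33 and 16.2 ± 2.19 FPKM (adjusted p = 0.00577). Genes of the DREAM and MuvB complexes, the RB family and the E2F factors fell in 6 of 15 (40.0%) and rose in 0 with a median of -0.32, led by the repressors E2f7, at 4.44 ± 0.557 and 1.83 ± 0.313 FPKM (adjusted p = 0.00424), and E2f8, at 3.98 ± 0.509 and 2.06 ± 0.439 FPKM (adjusted p = 0.0104). Core APC/C subunits and their partners fell in 3 of 16 (18.8%), near the share of all genes, and rose in 0, with a median of -0.18. The 3 included Cdc23, at 14.1 ± 1.49 and 9.97 ± 0.925 FPKM (adjusted p = 0.0194), and Anapc1, at 19.4 ± 2.88 and 12.9 ± 2.04 FPKM (adjusted p = 0.0223).

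G1 cyclins, their kinases and CDK inhibitors went both ways, with 3 of 11 higher (27.3%, against 7.91% of all genes), 3 lower (27.3%, against 16.7%), and a median of 0.052. The G1 cyclin Ccnd1 rose from 1.15 ± 0.260 to 4.94 ± 1.14 FPKM (limma adjusted p = 0.00302) and Ccnd3 from 7.08 ± 0.764 to 12.9 ± 2.74 FPKM (adjusted p = 0.0104). The inhibitor Cdkn1a rose from 17.9 ± 5.26 to 29.1 ± 3.20 FPKM (adjusted p = 0.0431). The other D-type cyclin, Ccnd2, fell from 37.9 ± 3.28 to 28.3 ± 2.48 FPKM (adjusted p = 0.0226). The kinase Cdk6 fell from 4.32 ± 0.716 to 2.39 ± 0.204 FPKM (adjusted p = 0.0122) and Cdk2 from 15.1 ± 1.26 to 11.4 ± 0.847 FPKM (adjusted p = 0.0256). The lists differ in size and were not tested against each other.

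**Figure D4:**
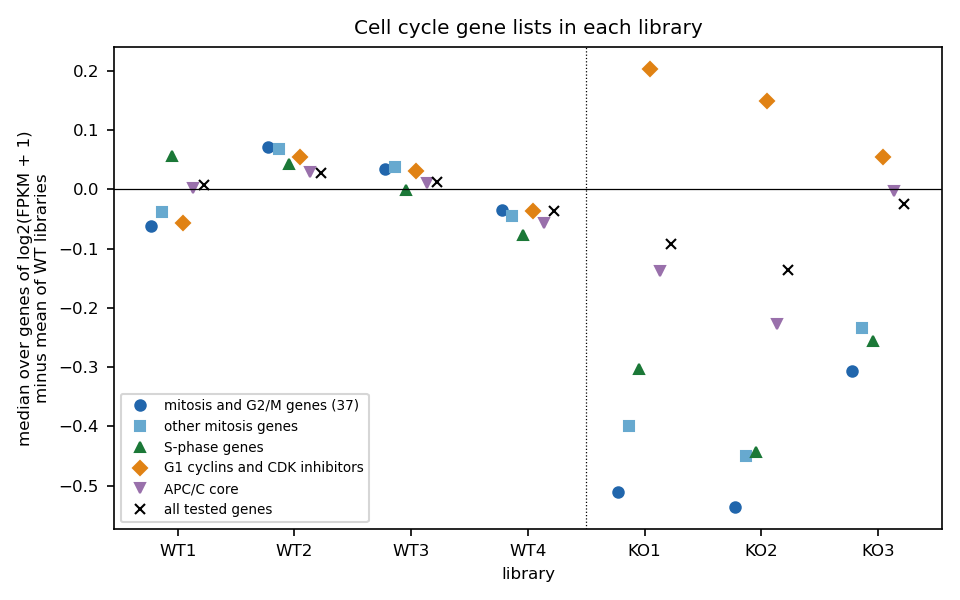
Median over the tested genes of each cell cycle list of log2(FPKM + 1) minus the mean of the WT libraries (y axis) in each of the 7 libraries (x axis). In KO1, KO2 and KO3 the 37 mitosis genes lie at -0.51, -0.54 and -0.31, and all tested genes at -0.093, -0.14 and -0.024. The G1 list lies above 0 in all 3 KO-labelled libraries.

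Differences followed transcript length in the whole table. The Spearman correlation of difference and longest transcript was -0.28 across the 13212 tested genes whose length is annotated and -0.26 across the 37, and genes of a library are no replicates of each other. The 13 shortest of the 37, of 1531 to 3334 bp, had a median difference of -0.39, against -0.052 for all genes of that length, and 8 of them fell, against 13.1% of all genes of that length. The 12 longest, of 4086 to 11130 bp, had a median of -0.56 against -0.20, and 10 of them fell, against 26.2%. The 12 between them had a median of -0.37 against -0.12, and 7 fell, against 19.6%. The median of the 37 thus lay below that of all tested genes of the same length, which include the 37, in all 3 classes. After a per-library correction of the values for length, 19 of the 37 fell and their median was -0.32, against a median of 0.0037 for all genes.

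**Figure D5:**
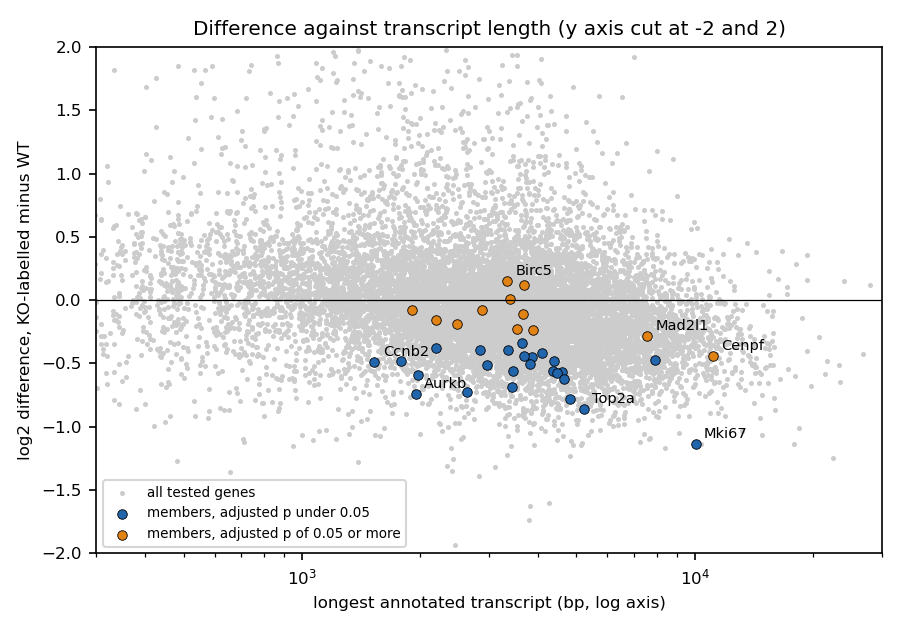
Log2 difference, KO-labelled minus WT (y axis, cut at -2 and 2), against the longest annotated transcript in bp (log x axis) for all tested genes (grey) and the 37 mitosis genes (blue, adjusted p under 0.05; orange, not called). Both short genes such as Ccnb2 and long ones such as Mki67 are among the blue points.

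Markers of other cell types moved in the same libraries. Granulosa markers were all expressed, with a summed level of 4100 to 5533 FPKM in WT and 2729 to 3816 FPKM in KO-labelled libraries, and 5 of 10 fell, against 16.7% of all genes. Against 7.91% higher among all genes, macrophage markers rose in 7 of 8 tested (sum 22.2 to 40.7 FPKM in WT, 61.1 to 130.1 FPKM in KO-labelled libraries), endothelial markers in 8 of 8 (11.2 to 24.1 and 43.1 to 60.8 FPKM), smooth muscle markers in 4 of 6 (55.7 to 98.7 and 124.6 to 349.6 FPKM) and erythroid markers in 5 of 5 (1051 to 2674 and 3021 to 4771 FPKM). Oocyte markers, of a cell that stores RNAs of the mitotic machinery, were at 453.3 to 774.9 FPKM in WT and 680.1 to 806.5 FPKM in KO-labelled libraries, with 1 of 10 higher. Of 6 lymphocyte markers 1 was tested and was not called, with a summed level of 2.03 to 2.32 FPKM in WT and 2.48 to 3.80 FPKM in KO-labelled libraries, and 3 stood under a mean of 0.1 FPKM. Their part in the fall of the mitosis genes was not tested.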

How the data were processed

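The authors deposited 1 table of FPKM for 50095 genes in 7 libraries. No header names the unit. It was taken as FPKM because the values are not whole and their sums differ between libraries. The submitters' processing notes name the build mm10 and, in no stated order, HISAT2, HTSeq 0.12.4, edgeR, DESeq2, Trimmomatic and FastQC. How FPKM was made is not given in the sources used here. FPKM is no count, so no count test was run and depth is unknown.

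The 13850 genes whose mean over all libraries reached 1 FPKM were fitted with limma 3.58.1 (R 4.3.3, mean-variance trend) on log2(FPKM + 1), WT n = 4 and KO n = 3. P-values were adjusted by Benjamini-Hochberg over all of them and called under 0.05. On this scale the change of low genes is understated. The fit was tested on simulated data. Ratios within libraries were tested with two-sided exact permutation over 35 splits (Python 3.11.15). Lengths and overlaps are from GENCODE vM21, of GRCm38. Other gene lists, 187 genes, all matched the table.

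The 37 genes, the lists and the tests were chosen with earlier results of these data known. Values in every library are given, in each role group, for the gene of smallest adjusted p and that of highest mean, of the other lists means are given for the 2 called genes of smallest p (for the G1 list all 6 called, 4 of them added after their values were seen), and the sets for ratios were drawn up after values were seen. Alternatives were other filters, a pseudocount of 0.1, 3 other scalings, a length correction, a replicate block and each library left out.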

Additional observations from a re-analysis of the deposited data

Results flagged for a closer look

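In 5 of the 37 genes 1 of the 4 WT libraries stood apart from the other 3, its gap to the nearest exceeding the 95% critical share of the range in Dixon's test for 4 samples. Chance alone flags about 1 in 20 groups. WT2 was high for Ccna2 at 32.1 FPKM and WT3 was high for Ccnb1 at 45.8 FPKM. WT1 was low for Cenpe at 7.47 FPKM, for Prc1 at 34.8 FPKM and for Ect2 at 10.8 FPKM. Without WT1 the call of Cenpe, Prc1 and Ect2 held, without WT2 that of Ccna2 held, and Ccnb1 was not called with or without WT3.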

How the results depend on the processing

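The number of the 37 genes that fell was 15 with no filter on low values and lay between 12 and 24 when 1 library was left out, with 0 rises in every setting. Their median difference was -0.58 with equal sums of FPKM and -0.32 with the length correction. Of all genes 3410 were called, 2315 lower and 1095 higher. With no filter 1865 were called, 1129 lower, and with a minimum mean of 5 FPKM 685 were higher. The split turned with scaling: 1620 lower and 1537 higher with median-of-ratios scaling, 1473 and 1561 with upper-quartile scaling, 3938 and 858 with equal sums of FPKM, and 1357 and 1602 with the length correction. Leaving out 1 library gave 1333 to 3349 calls, 802 to 2220 lower and 531 to 1331 higher. No filter and fewer libraries change the number of genes tested or of samples, and the cause of the other shifts was not tested.

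Of genes that were not called, the difference of Aurka turned to 0.0012 with median-of-ratios and 0.019 with upper-quartile scaling. That of Ttk turned to 0.0049 and 0.022 with these, to 0.011 with the length correction and to 0.011 without KO1, and that of Mybl2 to 0.015 with the length correction. Bub1b turned to -0.028 with equal sums of FPKM and ranged from -0.012 (without KO3) to 0.22 (without KO2) when 1 library was left out. Kif23 turned to -0.14 with equal sums and -0.045 without WT4 or with the replicate block, and ranged from -0.13 (without KO3) to 0.086 (without KO2). Ttk ranged from -0.13 to 0.011. The labels link same-numbered libraries by nothing but the number. Their deviations correlated at 0.19, -0.11 and 0.071 for numbers 1 to 3, against -0.17 to 0.26 between libraries of different number. So few pairs cannot decide whether same-numbered libraries share a batch. With the replicate block, which uses numbers 1 to 3, 22 of the 37 genes fell and 2645 of all genes were called. Without counts, depth sets no limit that could be given here.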
